A study of Mus musculus with 12 samples.

Results

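The genes described here are 40 mouse genes that act in mitosis: the cyclins and kinases that start it, the spindle checkpoint, the chromosomal passenger complex, the kinetochore, the spindle motors, the cytokinesis machinery and the anaphase-promoting machinery. They were taken by gene symbol, and the list was chosen with earlier results of these data known. All 40 were rows of a count table of 22298 genes, and all 40 were among the 11904 genes left by a filter on low counts. The lowest count of any of them in any library was 464, so none depended on a single group to pass that filter.

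The cells were 4T1, a mammary carcinoma line of BALB/c mice that stands for triple-negative breast cancer. They carried a guide RNA against the E3 ubiquitin ligase Cop1 (Cop1_sgRNA1 or Cop1_sgRNA2) or a Rosa26 control guide. Each population was given vehicle or, for 24 hours, IFNγ at 20 ng/ml, which gave 6 groups of 2 RNA-seq libraries. The labels do not say whether a population was a clone or a pool, or whether the 2 libraries of a group came from separate cultures, so the p-values measure the spread between these libraries, which may be technical. Each population stands for 1 guide, and "Cop1 loss" below is the mean of the 2 Cop1 guides.

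Libraries held 19378070 to 32609717 counts in genes. Levels are given as CPM, which are counts divided by the scaled size of the library. Cop1 itself stood at 89.7 and 98.2 CPM in the Rosa26 vehicle libraries, 59.1 and 63.1 with Cop1_sgRNA1 and 34.5 and 34.8 with Cop1_sgRNA2. With IFNγ it stood at 80.4 and 83.3, 60.7 and 60.2 and 32.3 and 33.6 CPM in the same order. Every library labelled with a Cop1 guide was therefore below every Rosa26 library, and RNA of the gene was still present in all of them. All 6 epithelial markers examined were expressed, with summed levels of 3635 to 4037 CPM in vehicle and 2899 to 3385 CPM with IFNγ. This sum moved with IFNγ in the same direction as most of the mitotic genes, and its part in the results below was not tested. Leukocyte markers summed to at most 1.34 CPM, with Cd3e and Adgre1 at 0 in every library, and endothelial markers to at most 0.94 CPM. The fibroblast markers summed to 15.8 to 24.3 CPM, nearly all of it Pdgfra, with Thy1 at 0.

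Entry into mitosis depends on CDK1 bound to cyclin B, which is held inactive until CDC25 phosphatases remove inhibitory phosphates. PLK1 and the Aurora kinases then build the spindle, the kinetochore ties chromosomes to microtubules, and the spindle checkpoint holds back the anaphase-promoting complex (APC/C) until every chromosome is attached. APC/C with CDC20 destroys securin and cyclin B, which frees separase to split sister chromatids. Most of these genes are transcribed late in the cell cycle, in G2 and M phase. Their promoters are known for a pair of elements, the cell cycle genes homology region (CHR), bound by the MuvB core in the repressive DREAM complex or together with B-MYB and FOXM1, and CCAAT boxes bound by NF-Y. IFNγ is known to slow the growth of many tumour cell lines, and p21, the product of Cdkn1a, is a CDK inhibitor that acts through DREAM.

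Promoters of 34 of the 40 genes were present in the RefSeq promoter table for GRCm38.p6, each running from 250 bases before to 50 bases after the start. A CHR core, TTTGAA on either strand (TTCAAA on the other), was found in 26 of the 34 (76.5%), against 20.2% of the 27025 genes in that table. A CCAAT box on either strand (ATTGG on the other) was found in 27 (79.4%), against 41.1%. Both elements were found in 23 (67.6%), against 7.97% of all genes. A gene with several promoters in the table was counted where any of them held the match. These are matches of letters, not shown sites of binding. For 24 of the 34 the bases after the RefSeq start lay in a GENCODE transcript of the gene. For the other 10 they did not, and their windows may miss the promoter in use. Among these 10 the GENCODE gene start lay outside the window for Kif2c and Mad2l1 and inside it for the rest. The 120 bases before the start are printed for 5 genes, 5′ to 3′ on the gene's own strand, with CHR and CCAAT matches in capitals. Cdc20 is shown as the member with the largest fall with IFNγ, and Top2a as the only one that rose. Cdk1 and Espl1 are the members with the largest rise and the largest fall after Cop1 loss in vehicle. Nuf2 is the member with the smallest change with IFNγ in Rosa26 cells, and its window holds no match to either element. For these 5 genes the bases after the start lay in a GENCODE transcript.
Cdc20: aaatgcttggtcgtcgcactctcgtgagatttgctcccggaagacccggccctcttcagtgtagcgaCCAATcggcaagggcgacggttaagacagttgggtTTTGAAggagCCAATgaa
Top2a: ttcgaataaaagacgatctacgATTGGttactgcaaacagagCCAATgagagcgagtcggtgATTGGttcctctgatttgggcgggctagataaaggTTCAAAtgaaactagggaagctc
Cdk1: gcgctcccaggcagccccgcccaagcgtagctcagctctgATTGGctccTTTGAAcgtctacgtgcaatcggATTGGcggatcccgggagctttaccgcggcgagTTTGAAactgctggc
Espl1: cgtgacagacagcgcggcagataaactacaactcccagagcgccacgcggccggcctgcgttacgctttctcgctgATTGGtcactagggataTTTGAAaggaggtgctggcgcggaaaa
Nuf2: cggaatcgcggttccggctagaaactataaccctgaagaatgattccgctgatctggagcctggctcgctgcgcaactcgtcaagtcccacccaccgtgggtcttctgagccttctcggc
These windows lie at chr4:118437344-118437463 on the minus strand for Cdc20, chr11:99024190-99024309 on the minus strand for Top2a, chr10:69352913-69353032 on the minus strand for Cdk1, chr15:102296173-102296292 on the plus strand for Espl1 and chr1:169531465-169531584 on the minus strand for Nuf2. The Cdk1 window held 2 CHR cores and 2 CCAAT boxes, and the Top2a window held 1 CHR core and 3 CCAAT boxes. The gene that rose and the gene that fell most with IFNγ thus both carried the pair of elements.

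IFNγ lowered most of the mitotic genes in Rosa26 control cells. Of the 40 genes, 35 fell and 1 rose at an adjusted p under 0.05, while over all genes tested 16.2% fell and 16.6% rose. The median log2 change of the 40 was -0.28, against -0.01 for all genes tested, and single genes ranged from -0.63 to 0.17. For 21 genes the fall was also at least 1.2-fold, against 8.25% of all genes tested. In the 2 vehicle libraries the 40 genes together took 0.812% and 0.819% of all counts, and with IFNγ 0.692% in each. In bulk RNA, fewer cells in mitosis and less of these RNAs per cell cannot be told apart.

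**Figure D1:**
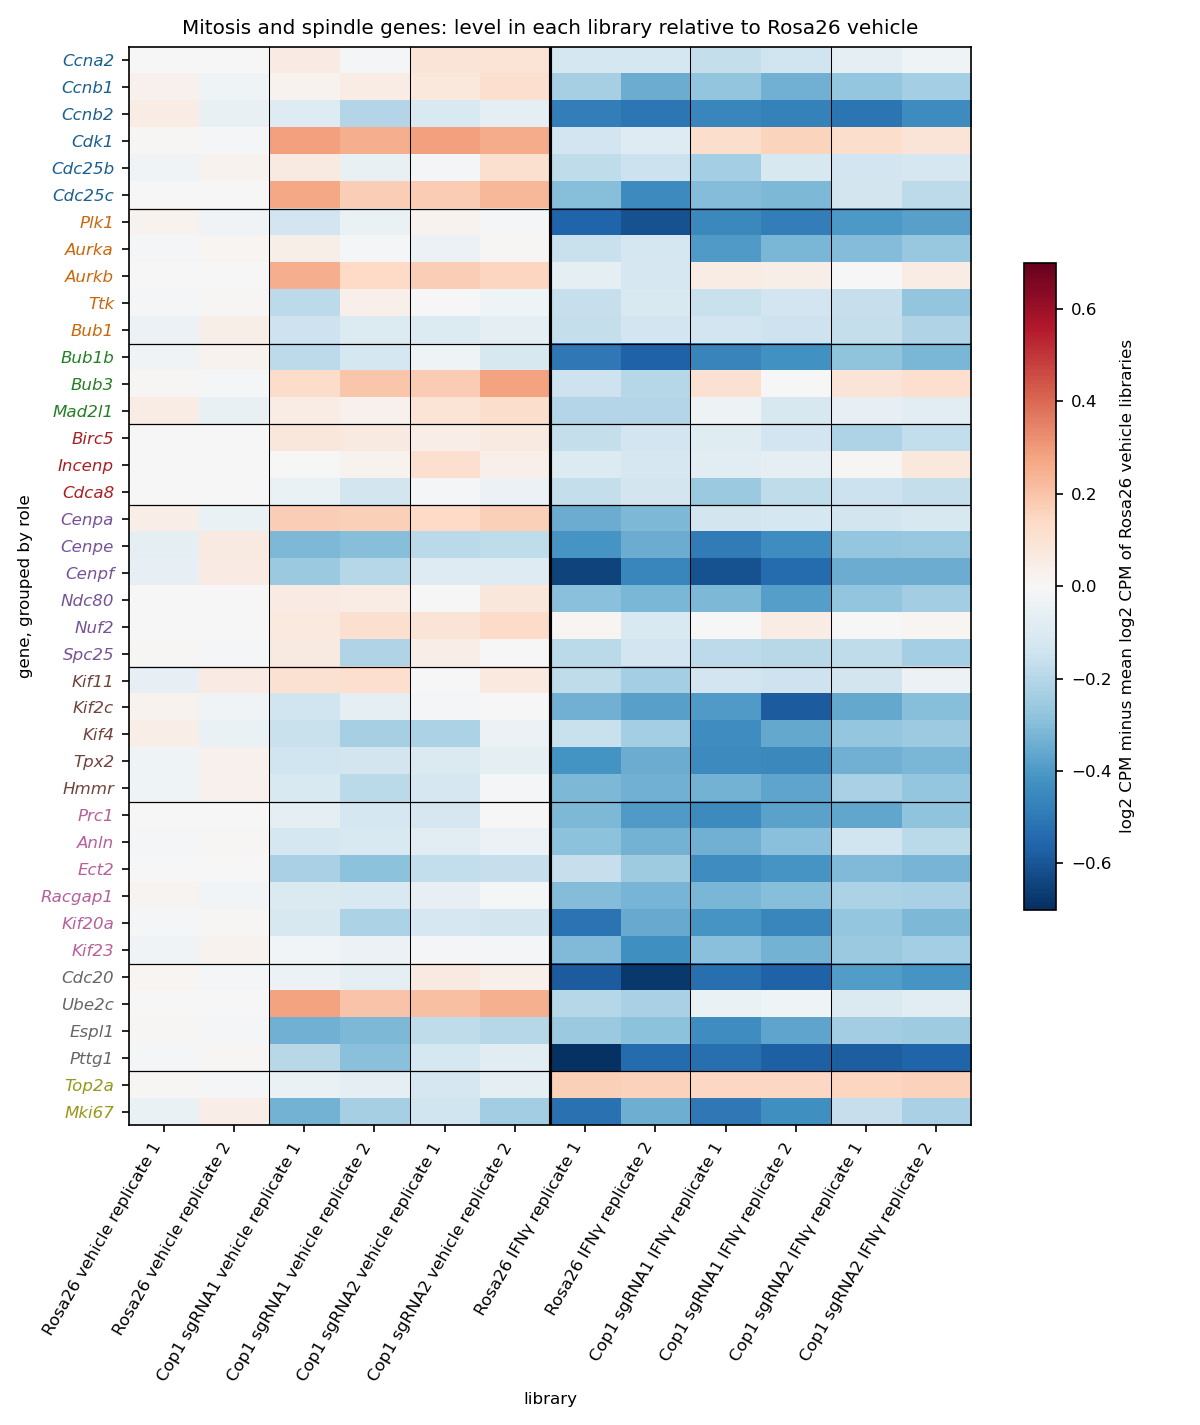
Level of each of the 40 genes (rows, grouped by role) in each of the 12 libraries (columns), as the log2 difference from the mean of the 2 Rosa26 vehicle libraries; colour runs from lower to higher. Within each population the IFNγ columns are lower than the vehicle columns in nearly every row, while Top2a is higher.

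The genes of the anaphase machinery held the largest falls. Cdc20, the activator that hands securin and cyclin B to the APC/C (chr4:118432901-118437352, minus strand, GRCm38), stood at 231 and 227 CPM in vehicle and 153 and 143 CPM with IFNγ in Rosa26 cells. The libraries with IFNγ lay far below those without, and Cdc20 fell by 0.63 ± 0.04 (adjusted p = 8.98e-19) on the log2 scale, with its standard error, to 0.647 of its vehicle level. Pttg1 encodes securin, the inhibitor of separase (chr11:43420250-43426251, minus strand), and its levels were 61.9 and 62.7 CPM in vehicle and 38.6 and 42.9 with IFNγ. It fell by 0.61 ± 0.06 (adjusted p = 8.29e-11), again with no overlap between the libraries. Espl1, separase itself, stood at 112 and 111 CPM in vehicle and 93.4 and 91.7 with IFNγ and fell by 0.27 ± 0.05 (adjusted p = 5.33e-06). Ube2c, the ubiquitin-conjugating enzyme that starts chains on APC/C substrates, fell by 0.21 ± 0.03 (adjusted p = 2.75e-06). The inhibitor, the protease it holds back and the APC/C factors that release it were thus all lower.

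Among the genes that start mitosis, all 6 fell: the cyclins Ccna2, Ccnb1 and Ccnb2, Cdk1, and the phosphatases Cdc25b and Cdc25c. Cdk1, the kinase of mitotic entry, showed one of the smallest changes, with 264 and 261 CPM in vehicle and 239 and 246 with IFNγ, and fell by 0.11 ± 0.03 (adjusted p = 0.00552). Its partner Ccnb1, cyclin B1, stood at 229 and 219 CPM and 191 and 176 CPM and fell by 0.29 ± 0.04 (adjusted p = 2.67e-08). Ccnb2, cyclin B2, fell by 0.50 ± 0.04 (adjusted p = 1.8e-12). In these cells the B cyclins therefore had larger changes than the kinase they activate, though the difference between genes was not tested. Cdc25c, which had the lowest level per length of the 40, changed by -0.37 ± 0.08 (adjusted p = 0.000425).

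Of the 5 mitotic kinases, Plk1, Aurka and Bub1 fell, and Aurkb and Ttk did not pass the test. Plk1, which drives spindle assembly and mitotic exit (chr7:122159439-122169873, plus strand), stood at 136 and 132 CPM in vehicle and 90.5 and 87.3 with IFNγ. It fell by 0.59 ± 0.04 (adjusted p = 1.07e-14), a change several times its error. Aurka, the kinase of spindle poles, was at 128 and 131 CPM and 116 and 119 CPM and fell by 0.14 ± 0.04 (adjusted p = 0.00929). Aurkb, the catalytic subunit of the chromosomal passenger complex, was at 114 and 113 CPM and 108 and 104 CPM, a change of -0.09 ± 0.04 (adjusted p = 0.103). Its libraries did not overlap either, but the change was small against the error.

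All 3 genes grouped as spindle checkpoint fell, while the checkpoint kinases Bub1 and Ttk were counted above with the mitotic kinases. Bub1b, which encodes BUBR1, a part of the complex that inhibits CDC20 (chr2:118598211-118641591, plus strand), stood at 171 and 177 CPM in vehicle and 123 and 117 with IFNγ and fell by 0.53 ± 0.04 (adjusted p = 1.53e-14). Mad2l1, the MAD2 subunit of the same complex, was at 125 and 117 CPM and 105 and 105 CPM and fell by 0.21 ± 0.04 (adjusted p = 0.000219). Bub3, which binds BUBR1 and BUB1, was at 163 and 161 CPM and 147 and 141 CPM and fell by 0.17 ± 0.04 (adjusted p = 0.000787). These 3 checkpoint genes and their target Cdc20 were thus lower in the same libraries.

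The 3 other passenger complex genes fell by little, between 0.11 and 0.15 on the log2 scale. Birc5, survivin, which brings the complex to centromeres, stood at 172 and 173 CPM in vehicle and 154 and 157 with IFNγ and fell by 0.15 ± 0.04 (adjusted p = 0.00115). Incenp, the scaffold, changed by -0.11 ± 0.03 and Cdca8, borealin, by -0.15 ± 0.04.

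Of the 6 centromere and kinetochore genes, Cenpa, Cenpe, Cenpf and Ndc80 fell, while Nuf2 and Spc25 did not pass the test. Cenpf, a large kinetochore and nuclear matrix protein, stood at 184 and 199.8 CPM in vehicle and 123 and 140.0 with IFNγ and fell by 0.55 ± 0.05 (adjusted p = 4.14e-12). Cenpe, the kinetochore motor that moves chromosomes to the metaphase plate (chr3:135212537-135273611, plus strand), was at 196 and 215 CPM and 154 and 162 CPM and fell by 0.38 ± 0.04 (adjusted p = 8.42e-11). Cenpa, the histone H3 variant that marks the centromere, was at 196 and 184 CPM and 149 and 153 CPM and fell by 0.33 ± 0.04 (adjusted p = 3.56e-10). The NDC80 complex was uneven: Ndc80 changed by -0.31 ± 0.05, Spc25 by -0.16 ± 0.07 (adjusted p = 0.0683) and Nuf2 by -0.04 ± 0.05 (adjusted p = 0.52). Nuf2 was the only gene of the 40 whose vehicle and IFNγ libraries overlapped in Rosa26 cells.

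All 5 spindle motor and spindle protein genes fell, as did all 6 of the central spindle and cytokinesis. Kif11, the motor that pushes spindle poles apart, stood at 157 and 169.5 CPM in vehicle and 144 and 138 with IFNγ and fell by 0.21 ± 0.04 (adjusted p = 6.77e-05). Tpx2, which activates Aurora A on the spindle, was at 248 and 259 CPM and 189.6 and 199 CPM and fell by 0.38 ± 0.03 (adjusted p = 2.04e-12). Kif2c, Hmmr and Kif4 changed by -0.36 ± 0.05, -0.32 ± 0.04 and -0.20 ± 0.05. Among the cytokinesis genes Prc1, which bundles microtubules of the central spindle, was at 137 and 138 CPM and 111 and 105 CPM and fell by 0.36 ± 0.05 (adjusted p = 2.5e-08). Anln, anillin of the contractile ring and one of the more abundant of the 40 genes, was at 670.2 and 679 CPM and 553 and 537 CPM and fell by 0.31 ± 0.03 (adjusted p = 2.95e-12). Ect2, the exchange factor that switches on RhoA at the furrow, was at 302 and 304 CPM and 271 and 255 CPM and fell by 0.20 ± 0.03 (adjusted p = 3.56e-06). Racgap1, Kif20a and Kif23 changed by -0.31 ± 0.03, -0.43 ± 0.05 and -0.37 ± 0.04. Every gene from pole to midbody in these 2 groups was therefore lower in both IFNγ libraries. The exons of Kif20a share 29.3% of their bases with Cdc23 on the other strand, and those of Ube2c share 22.8% with Tnnc2, so with the strand setting unknown part of their counts may belong to these genes.

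The 2 genes of mitotic chromosomes moved in opposite directions. Top2a, topoisomerase IIα, which untangles sister chromatids and is also made through S phase (chr11:98992943-99024189, minus strand), stood at 1032 and 1023 CPM in vehicle and 1155 and 1150 with IFNγ. It was higher in both IFNγ libraries than in both vehicle libraries and rose by 0.17 ± 0.02 (adjusted p = 5.79e-07). Mki67, the Ki-67 proliferation marker that coats mitotic chromosomes, was at 421 and 450.3 CPM and 304 and 344 CPM and fell by 0.43 ± 0.07 (adjusted p = 0.0014). Its vehicle and IFNγ libraries did not overlap, though the replicates also stood apart within each group.

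In Rosa26 cells 38 of the 40 genes had both IFNγ libraries below both vehicle libraries, against 33.9% of all genes tested. Genes with a CHR core in the promoter had a median log2 change of -0.31 (n = 26), those with a promoter in the table but no core -0.18 (n = 8), and the 6 genes without a promoter in the table -0.25. The ranges overlapped, from -0.63 to 0.17 with the core and from -0.61 to -0.04 without it. When both libraries of every population were added together, so that the spread came from the 2 Cop1 guides, 17 of the 40 fell in Rosa26 cells and none rose, against 3.27% and 5.99% of all genes tested, and in Cop1-loss cells 19 fell and 1 rose, against 4.23% and 7.22%.

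**Figure D2:**
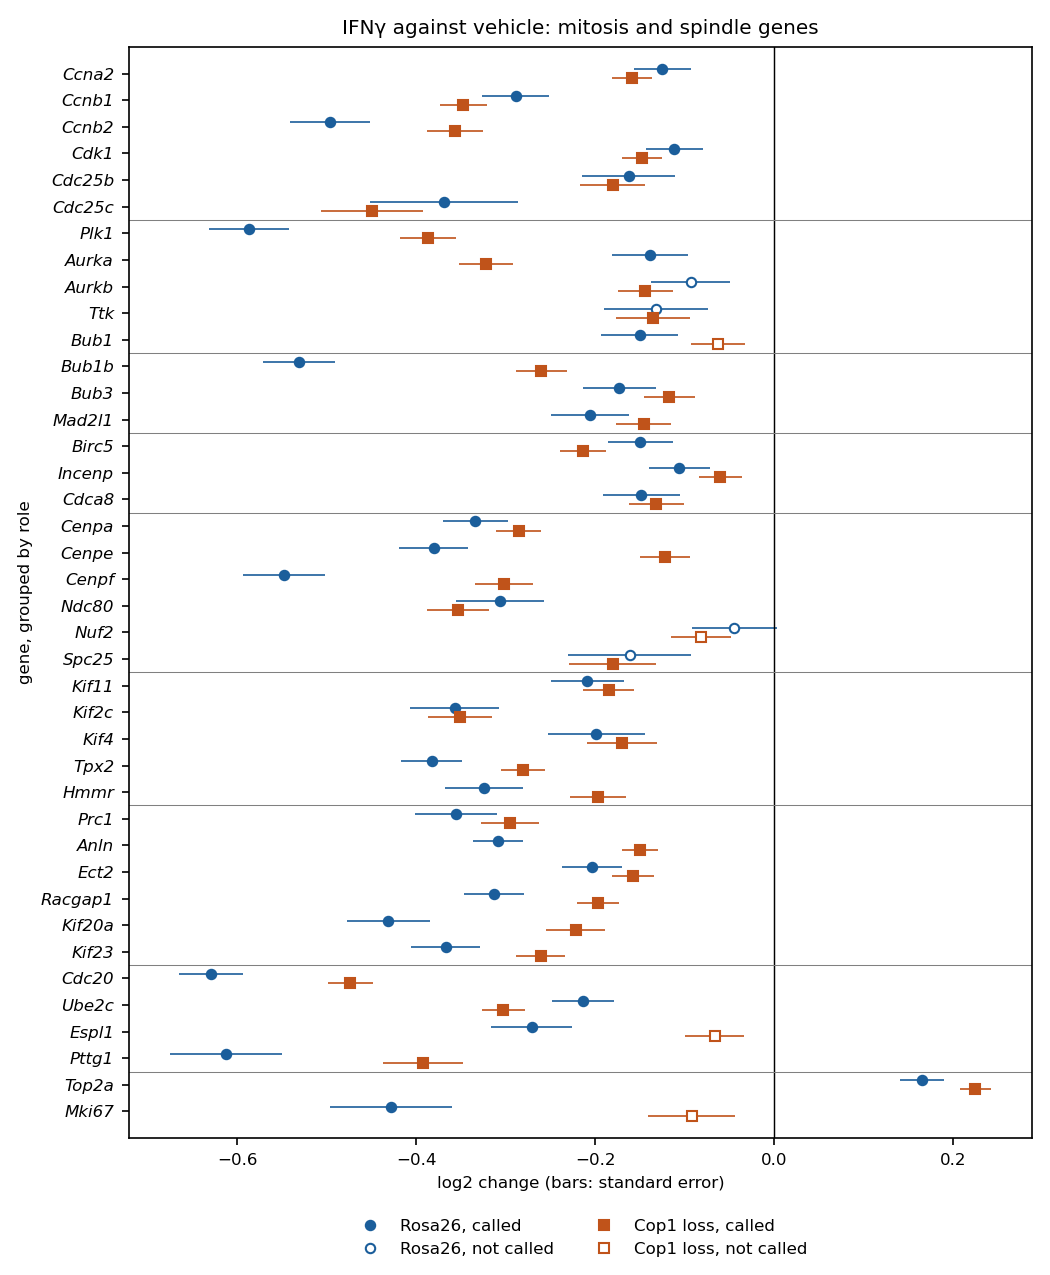
Log2 change with IFNγ (horizontal axis, bars are standard errors) for each of the 40 genes, grouped by role, in Rosa26 cells (blue circles) and in Cop1-loss cells (orange squares); open symbols did not pass an adjusted p of 0.05. Only Top2a lies above 0, and Cdc20, Pttg1, Plk1, Cenpf and Bub1b lie farthest below it in Rosa26 cells.

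In Cop1-loss cells IFNγ also lowered 35 of the 40 genes and raised 1, against 16.1% and 18.1% of all genes tested. The median log2 change was -0.19, with a range of -0.47 to 0.22, and 14 genes fell by at least 1.2-fold, against 6.2% of all genes tested. Cdc20 again had the largest fall, with 223 and 219 CPM in vehicle and 159 and 155 with IFNγ in Cop1_sgRNA1 cells. In Cop1_sgRNA2 cells it stood at 239 and 235 CPM and 175 and 172 CPM. Over both guides it fell by 0.47 ± 0.03 (adjusted p = 5.75e-20). Top2a was again the gene that rose, from 995 and 979.7 to 1135 and 1138 CPM in Cop1_sgRNA1 cells and from 949 and 981 to 1141 and 1148 CPM in Cop1_sgRNA2 cells. It rose by 0.22 ± 0.02 (adjusted p = 1.76e-14) over both guides. The Rosa26 and Cop1-loss contrasts share no library, but they come from 1 model and share its estimate of the spread. In both, 32 genes were called lower, against 9.89% of all genes tested. Taking the 2 guides one at a time, 28 genes were called lower in Rosa26, Cop1_sgRNA1 and Cop1_sgRNA2 cells alike, against 5.44% of all genes tested. With Cop1_sgRNA1 31 genes fell and 1 rose, against 9.98% and 12.5% of all genes tested, and with Cop1_sgRNA2 32 fell and 1 rose, against 11% and 14.2%. Nuf2 was called in neither Rosa26 nor Cop1-loss cells. The 3 further genes not called in Cop1-loss cells were Espl1, with -0.07 ± 0.03 (adjusted p = 0.114), Mki67, with -0.09 ± 0.05 (adjusted p = 0.189), and Bub1, with -0.06 ± 0.03 (adjusted p = 0.112).

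The size of the IFNγ response was then compared between Cop1-loss and Rosa26 cells, as the difference of the 2 responses in 1 model. Of the 40 genes, 8 had a less negative response after Cop1 loss and 1 a more negative one, against 3.38% and 2.36% of all genes tested. The genes that fell less were Bub1b, Cenpe, Cenpf, Anln, Plk1, Kif20a, Espl1 and Cdc20, and the gene that fell more was Aurka. No cyclin and no gene of the passenger complex or of the spindle motor group passed this test.

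Bub1b fell from 153 and 159 to 126 and 129 CPM in Cop1_sgRNA1 cells and from 170.1 and 161 to 143 and 139 CPM in Cop1_sgRNA2 cells, a response of -0.26 ± 0.03 against -0.53 ± 0.04 in Rosa26 cells. The difference was 0.27 ± 0.05 (adjusted p = 0.000265). Cenpe stood at 165 and 167 CPM in vehicle and 146 and 152 with IFNγ in Cop1_sgRNA1 cells, and at 179.9 and 182 and 169.9 and 171 CPM in Cop1_sgRNA2 cells. Its responses of -0.12 ± 0.03 and -0.38 ± 0.04 differed by 0.26 ± 0.05 (adjusted p = 0.000296). For Cenpe, Cenpf, Espl1, Anln and Kif20a both Rosa26 vehicle libraries were above every Cop1-guide vehicle library, while the IFNγ libraries overlapped. Bub1b separated in both settings, with Rosa26 cells higher in vehicle and lower with IFNγ. All of these differences use the same Rosa26 vehicle libraries. Anln stood at 620.2 and 626 CPM in vehicle and 535 and 550.3 with IFNγ with Cop1_sgRNA1, and at 638 and 655 and 613 and 591 with Cop1_sgRNA2. The difference of its responses was 0.16 ± 0.03 (adjusted p = 0.00217). Plk1 stood at 122 and 129 and 97.8 and 95.4 CPM with Cop1_sgRNA1, at 136 and 132 and 101 and 103 with Cop1_sgRNA2, with a difference of 0.20 ± 0.05 (adjusted p = 0.0181). For Plk1 and Cdc20 it was instead only the IFNγ libraries that separated, with every Cop1-guide library above both Rosa26 libraries.

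Cenpf stood at 160.4 and 167 CPM in vehicle and 126 and 132 with IFNγ with Cop1_sgRNA1, and at 180.4 and 179.9 and 151 and 151 with Cop1_sgRNA2. Its difference of 0.25 ± 0.06 (adjusted p = 0.00523) did not pass without replicate 2 of Rosa26 vehicle or without replicate 1 of Rosa26 IFNγ. Aurka went the other way, from 133 and 129 to 98.2 and 104 CPM with Cop1_sgRNA1 and from 126 and 130.0 to 105 and 108 CPM with Cop1_sgRNA2, a difference of -0.18 ± 0.05 (adjusted p = 0.0267). All 4 Cop1-guide IFNγ libraries lay below both Rosa26 IFNγ libraries, while the vehicle libraries overlapped. Mki67 had the largest difference of the 40, 0.34 ± 0.08 (adjusted p = 0.0602), but did not pass the test. It stood at 347 and 371 CPM in vehicle and 309 and 323 with IFNγ with Cop1_sgRNA1, and at 395 and 368 and 389 and 372 with Cop1_sgRNA2, whose libraries overlapped. Without replicate 1 of Rosa26 vehicle, or without replicate 2, 4 genes passed the test, all with a less negative response. With both libraries of every population added together, edgeR's quasi-likelihood test called 0 of the 40, of which 2 had an unadjusted p under 0.05, and 0 of all 11904 genes tested.

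**Figure D3:**
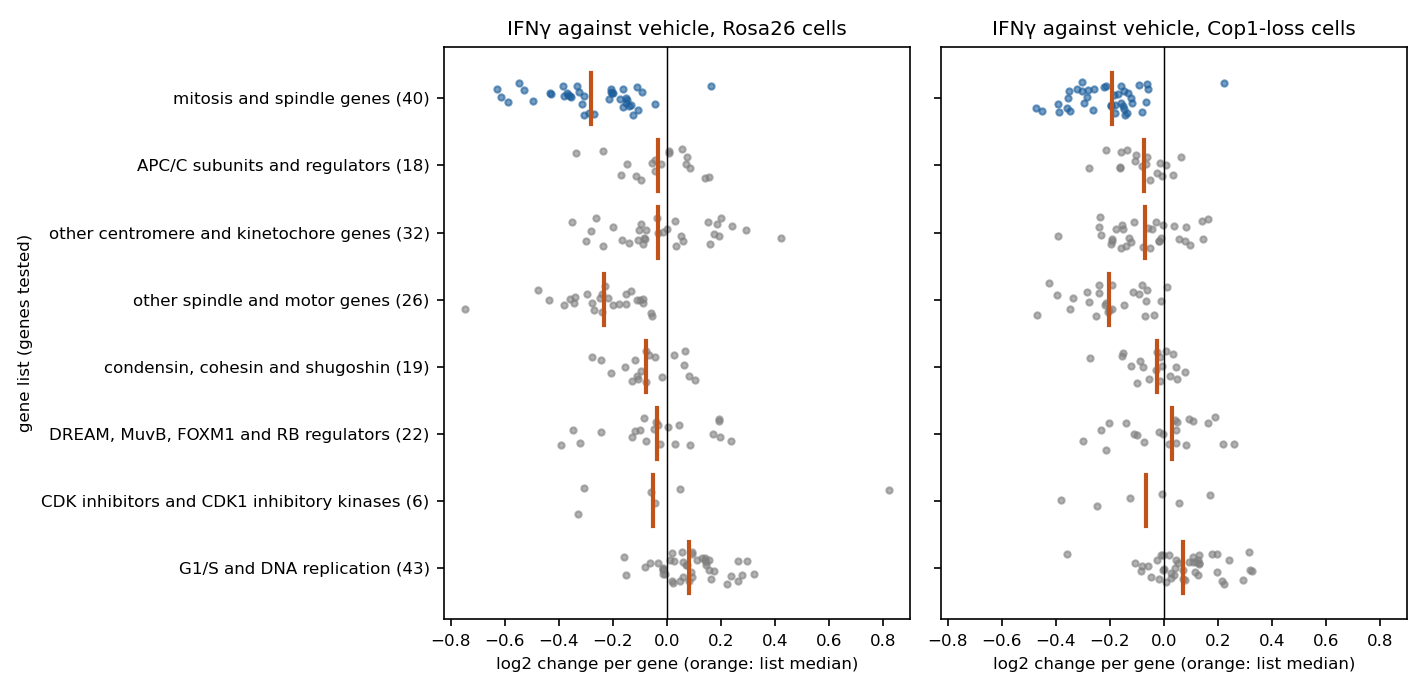
Log2 change with IFNγ (horizontal axis) of every gene tested in each of 8 lists (rows, genes tested in parentheses), in Rosa26 cells (left panel) and Cop1-loss cells (right panel); each point is 1 gene, blue for the 40 mitotic genes and grey for the others, and the orange bar is the list's median. In Rosa26 cells the medians of the 40 genes and of the other spindle and motor genes, -0.28 and -0.23, lie below those of the other lists, and that of the G1/S and replication genes, 0.08, lies above 0.

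Other genes of the cell cycle were counted by lists that hold none of the 40. With IFNγ in Rosa26 cells 16.2% of all genes tested fell and 16.6% rose. With both libraries of every population added together 3.27% fell and 5.99% rose. Of 26 other spindle and motor genes, 20 fell with IFNγ in Rosa26 cells and none rose, with a median log2 change of -0.23; with both libraries of every population added together 6 fell and none rose. Aspm, a spindle pole protein, stood at 125 ± 2.78 CPM (SD, n = 2) in vehicle and 74.2 ± 0.636 with IFNγ and fell by 0.75 ± 0.05 (adjusted p = 2.61e-16), more than any of the 40. The difference between its responses in Cop1-loss and Rosa26 cells was 0.47 ± 0.06 (adjusted p = 6.9e-07), which did not pass with both libraries of every population added together (adjusted p = 0.998). Of 19 condensin, cohesin and shugoshin genes 8 fell, among them Ncapd2, with -0.28 ± 0.04, and Rad21, with -0.21 ± 0.03; 2 fell without replicate 2 of Rosa26 vehicle and 4 without replicate 2 of Rosa26 IFNγ. Of the 32 other centromere and kinetochore genes 6 rose and 6 fell, close to the shares of 16.6% and 16.2% of all genes tested, and without replicate 2 of Rosa26 vehicle 3 rose and 4 fell. Of 18 APC/C subunits and regulators, which act with Cdc20 and Ube2c, 2 rose and 5 fell. Without replicate 1 of Rosa26 vehicle, or by DESeq2, these became 0 and 3, without replicate 2 of it 0 and 2, and without replicate 2 of Rosa26 IFNγ 1 and 3. With both libraries of every population added together edgeR's quasi-likelihood test called none of these 3 lists' genes in Rosa26 cells at an adjusted p under 0.05.

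Genes of G1/S and DNA replication, which act earlier in the cycle, mostly did not fall with them. Of 43, 14 rose and 2 fell in Rosa26 cells, against 16.6% and 16.2% of all genes tested, with a median of 0.08. In Cop1-loss cells 22 rose and 1 fell, against 18.1% and 16.1%, with a median of 0.07. With both libraries of every population added together 1 rose in Rosa26 cells and 6 in Cop1-loss cells, and none fell. Of all genes tested 5.99% and 7.22% rose in that setting. Mcm10, a replication initiation factor, rose by 0.30 ± 0.05 (adjusted p = 1.68e-06) in Rosa26 cells, and Ccnd2, cyclin D2, rose by 0.24 ± 0.04 (adjusted p = 4.23e-05). Mcm6, a helicase subunit, and Tk1, thymidine kinase, were the 2 that fell, by 0.15 and 0.16. Top2a, which is also made in S phase, rose like most of the called genes of this list. Whether its rise is linked to theirs was not tested.

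Regulators of the G2/M promoters showed no common direction: of 22 genes of DREAM, MuvB, FOXM1 and RB, 4 rose and 5 fell in Rosa26 cells, near the shares of all genes tested. Without replicate 2 of Rosa26 vehicle these became 2 and 2, without replicate 1 of Rosa26 IFNγ 3 and 2, and with both libraries of every population added together 0 and 1. Mybl2, which encodes B-MYB, rose by 0.17 ± 0.04 (adjusted p = 0.00244), and E2f8, a repressive E2F, fell by 0.32 ± 0.05 (adjusted p = 1.54e-06). Foxm1, an activator of G2/M genes, stood at 174 ± 2.56 CPM in vehicle and 159 ± 10 with IFNγ in Rosa26 cells. With Cop1_sgRNA1 it stood at 161 ± 4.2 and 165 ± 0.0479 CPM, and with Cop1_sgRNA2 at 173 ± 3.67 and 192 ± 1.51. The difference of its responses was 0.22 ± 0.05 (adjusted p = 0.00171), and it did not pass without replicate 1 of Rosa26 IFNγ or with both libraries of every population added together (adjusted p = 0.998).

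Of the CDK inhibitors and inhibitory kinases 6 of 9 were tested. Among these, 1 rose and 2 fell with IFNγ in Rosa26 cells, against 16.6% and 16.2% of all genes tested. Cdkn1a, which encodes p21, stood at 26.2 ± 2.12 CPM in vehicle and 46.4 ± 0.919 with IFNγ in Rosa26 cells and rose by 0.82 ± 0.08 (adjusted p = 1.15e-11). With Cop1_sgRNA1 it stood at 35 ± 1.91 CPM in vehicle and 38.3 ± 0.96 with IFNγ, and with Cop1_sgRNA2 at 33.8 ± 4.45 and 39.4 ± 1.51. Over both guides it rose by 0.17 ± 0.05 (adjusted p = 0.0113), and the difference between the responses was -0.65 ± 0.10 (adjusted p = 6.38e-06). The change after Cop1 loss was 0.40 ± 0.07 in vehicle and -0.25 ± 0.06 with IFNγ, both past the threshold. With both libraries of every population added together the difference of the responses (adjusted p = 0.228), the rise over both guides (adjusted p = 0.145) and the change after Cop1 loss with IFNγ (adjusted p = 0.0673) did not pass, while the rise in Rosa26 cells and the change in vehicle did. Wee1, the kinase that holds CDK1 inactive, fell by 0.33 ± 0.07 (adjusted p = 8.79e-05) in Rosa26 cells. Whether Cdkn1a and the mitotic genes are linked was not tested.

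After Cop1 loss in vehicle 15 of the 40 genes fell and 6 rose, against 19.2% and 16.6% of all genes tested. The count that rose was thus near the background, and the median log2 change was -0.04 against -0.01. Taken singly, Cop1_sgRNA1 gave more falls than the share of all genes and Cop1_sgRNA2 did not, as counted below. The genes that rose were Cdk1, Ube2c, Cdc25c, Bub3, Aurkb and Cenpa. The largest falls were those of Espl1, Cenpe, Mki67 and Ect2, and the others that fell were Pttg1, Cenpf, Kif4, Kif20a, Ccnb2, Bub1b, Tpx2, Hmmr, Bub1, Anln and Top2a. The largest change was that of Cdk1, at 0.27 on the log2 scale. This comparison and the IFNγ response of Rosa26 cells share the Rosa26 vehicle libraries.

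Cdk1 stood at 264 and 261 CPM with Rosa26, 319 and 313 with Cop1_sgRNA1 and 320.0 and 314 with Cop1_sgRNA2. Both guides lay above the control with no overlap and close to each other, and Cdk1 rose by 0.27 ± 0.03 (adjusted p = 9.89e-11) over both. Bub3 was at 163 and 161, 178 and 186 and 184 and 198 CPM in the same order and rose by 0.20 ± 0.03 (adjusted p = 1.49e-05). Cenpa was at 214 and 213 CPM with Cop1_sgRNA1 and 209.7 and 213 with Cop1_sgRNA2, above both Rosa26 libraries, and rose by 0.16 ± 0.03 (adjusted p = 4.85e-05). Aurkb was at 135 and 125 and 128 and 126 CPM with the 2 guides and rose by 0.18 ± 0.04 (adjusted p = 0.000166). Ube2c rose by 0.24 ± 0.03 (adjusted p = 1.38e-08).

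Among the genes that fell, Espl1 was at 88.4 and 89.9 CPM with Cop1_sgRNA1 and 98.8 and 97.4 with Cop1_sgRNA2, against 112 and 111 with Rosa26. It fell by 0.26 ± 0.04 (adjusted p = 8.87e-07), and Cenpe fell by 0.25 ± 0.03 (adjusted p = 7.97e-08). Ect2 was at 259 and 248 CPM with Cop1_sgRNA1 and 269 and 271 with Cop1_sgRNA2 and fell by 0.21 ± 0.03 (adjusted p = 8.67e-08). For these 3 genes Cop1_sgRNA1 gave the lower levels, although Cop1 RNA was lower with Cop1_sgRNA2. Pttg1 was at 54.6 and 50.9 and 57.2 and 59.1 CPM with the 2 guides and fell by 0.17 ± 0.05 (adjusted p = 0.00955). Tpx2, at 230.4 and 232 and 236 and 243 CPM, fell by 0.11 ± 0.03 (adjusted p = 0.00315), and Mki67 fell by 0.24 ± 0.06 (adjusted p = 0.0127). Ccnb1, at 228 and 232 and 236 and 243 CPM, changed by 0.07 ± 0.03 (adjusted p = 0.0976). Birc5, at 182 and 179.9 and 178 and 180.0 CPM, Mad2l1, at 126 and 123 and 129.5 and 132, Kif11, at 176 and 177 and 163 and 171, and Prc1, at 132 and 126 and 127 and 138, did not pass the test either. Of all 40 genes, 9 had every Cop1-guide library above both Rosa26 libraries and 14 had every one below, against 21.5% and 24.5% of genes tested.

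Without replicate 2 of Rosa26 vehicle 6 genes rose and 6 fell, and without replicate 1 of it 6 rose and 11 fell. With both libraries of every population added together, 2 genes rose and none fell by edgeR's quasi-likelihood test at an adjusted p under 0.05, against 2.76% and 4.51% of all genes tested, and 10 had an unadjusted p under 0.05.

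The guides taken singly gave 7 genes higher and 15 lower for Cop1_sgRNA1, against 15.8% and 17.5% of all genes tested. For Cop1_sgRNA2 they gave 9 higher and 5 lower, against 13.5% and 15.7%; without replicate 2 of Rosa26 vehicle these became 4 and 3, and without replicate 1 of Cop1_sgRNA2 vehicle 6 and 3. Both singly taken comparisons use the same Rosa26 libraries.

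**Figure D4:**
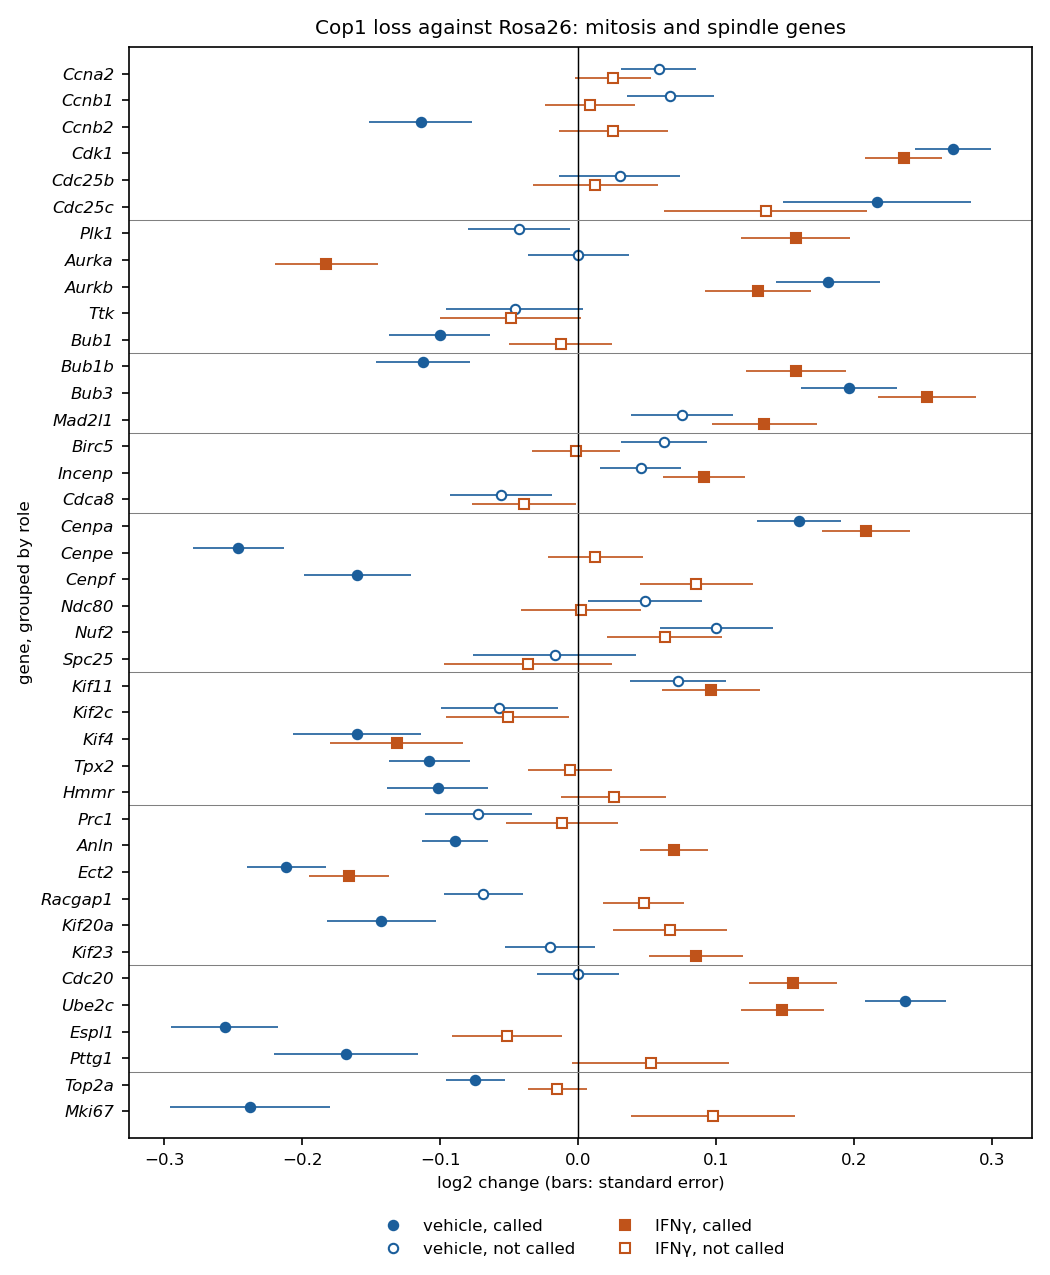
Log2 change after Cop1 loss (horizontal axis, bars are standard errors) for each of the 40 genes, grouped by role, in vehicle and with IFNγ; open symbols did not pass an adjusted p of 0.05. Cdk1, Bub3, Cenpa, Ube2c and Aurkb were called above 0 in both, and Ect2 and Kif4 were called below 0 in both.

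Changes in this comparison also followed transcript length, over all genes as over the 40. Across 9116 well-expressed genes the Spearman correlation of the log2 change with exonic length was -0.27, with medians of 0.06 in the quintile of shortest genes and -0.08 in that of the longest. Across the 40 genes, whose exonic lengths run from 1.53 to 15.4 kb, it was -0.23. The points in each case come from the same 12 libraries, and genes are not independent replicates. For the difference of responses the same correlation was 0.22 over all genes and 0.32 over the 40, and for IFNγ in Rosa26 cells -0.04 and 0.01. For IFNγ in Cop1-loss cells it was 0.14 and 0.45. With a trend on length removed from each library, a setting chosen after the data were seen, 9 genes rose and 13 fell after Cop1 loss in vehicle, and Cenpf, Anln and Top2a were no longer called. In that setting 37 genes fell and 1 rose with IFNγ in Rosa26 cells, 38 fell and 1 rose in Cop1-loss cells, and 11 differed between the responses, all less negative after Cop1 loss. Aurka was then no longer among them. What the length trend comes from was not tested.

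**Figure D5:**
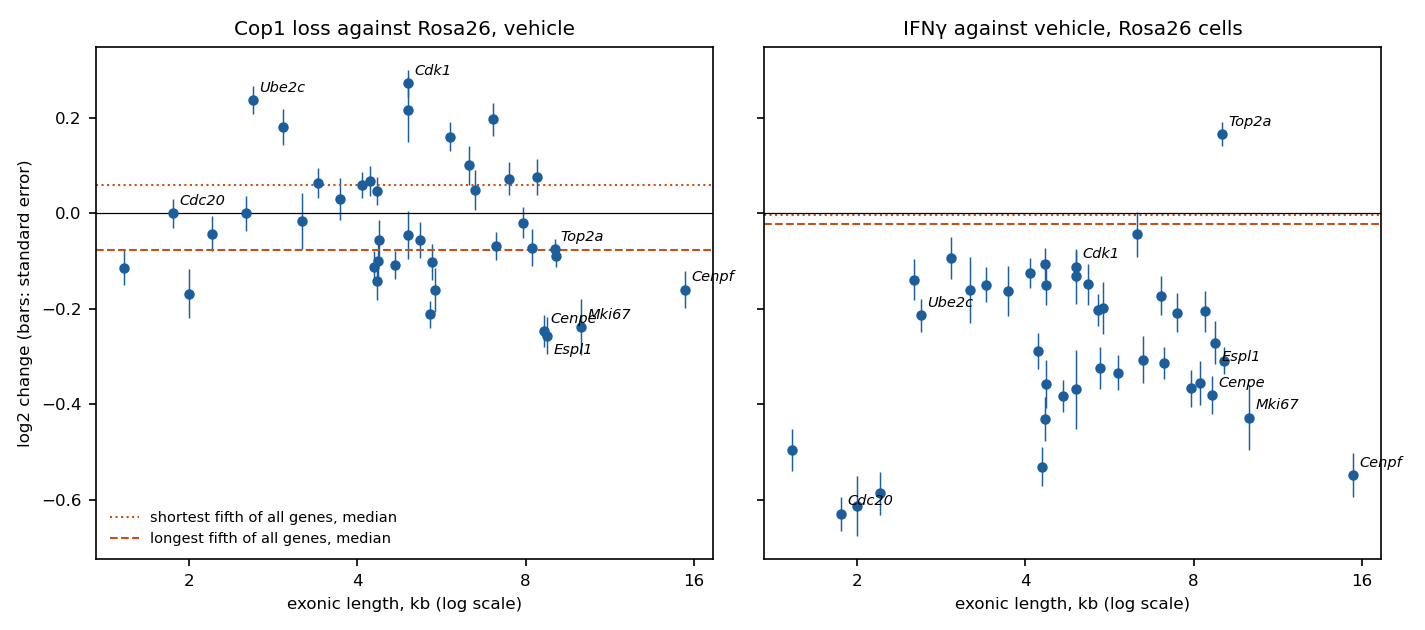
Log2 change (vertical axis, bars are standard errors) against exonic length in kb (horizontal axis, log scale) for the 40 mitotic genes, after Cop1 loss in vehicle (left panel) and with IFNγ in Rosa26 cells (right panel); the dotted and dashed lines are the medians of the shortest and the longest quintile of all well-expressed genes. On the left the dotted line lies at 0.06 and the dashed line at -0.08, and Cdk1 and Ube2c lie highest. On the right both lines lie close to 0 and all of the 40 but Top2a lie below 0.

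With IFNγ present in all cells, Cop1 loss gave 13 higher and 3 lower of the 40, against 19.8% and 20.7% of all genes tested. With library totals in place of the scaling factors the split was 8 higher and 4 lower. Taken singly, Cop1_sgRNA2 gave more rises than the share of all genes and Cop1_sgRNA1 did not, as counted below. The genes that rose were Bub3, Cdk1, Cenpa, Cdc20, Plk1, Bub1b, Ube2c, Mad2l1, Aurkb, Kif11, Incenp, Kif23 and Anln, and those that fell were Aurka, Ect2 and Kif4. The median log2 change was 0.04. All 3 genes grouped as spindle checkpoint were among those that rose, and both Cdc20 and Ube2c. Bub1 and Ttk, checkpoint kinases counted here with the mitotic kinases, did not pass the test (-0.01 and -0.05).

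Bub3 had the largest change, with 147 and 141 CPM with Rosa26, 175 and 162 with Cop1_sgRNA1 and 173 and 176 with Cop1_sgRNA2, and rose by 0.25 ± 0.04 (adjusted p = 1.66e-07). Cdk1 was at 239 and 246, 286 and 293 and 286 and 279 CPM in the same order and rose by 0.24 ± 0.03 (adjusted p = 3.33e-09). Cenpa was at 174 and 175 CPM with Cop1_sgRNA1 and 174 and 176 with Cop1_sgRNA2, against 149 and 153 with Rosa26, and rose by 0.21 ± 0.03 (adjusted p = 7.68e-07). In each of these 3 genes every Cop1-guide library was above both control libraries, as in vehicle. Mad2l1 was at 118 and 112 CPM with Cop1_sgRNA1 and 116 and 115 with Cop1_sgRNA2 and rose by 0.14 ± 0.04 (adjusted p = 0.00407). Kif11, at 149 and 148 and 149 and 159 CPM, and Aurkb, at 117 and 116 and 114 and 118 CPM, also rose. Ect2 was at 224 and 228 CPM with Cop1_sgRNA1 and 245 and 242 with Cop1_sgRNA2 and fell by 0.17 ± 0.03 (adjusted p = 9.83e-06), and Aurka fell by 0.18 ± 0.04 (adjusted p = 0.00011). The rest did not pass the test, among them Ccnb1, at 185 and 178 and 186 and 190.3 CPM, Birc5, at 163 and 157 and 149 and 153, and Pttg1, at 43.2 and 41.9 and 41.7 and 42.2. Tpx2, at 186 and 186 and 201 and 203 CPM, Prc1, at 101 and 106 and 107 and 113, Espl1, at 82.7 and 86.4 and 94.5 and 94.1, Cenpe, Cenpf and Mki67 did not pass it either. Adding both libraries of every population together left 2 genes higher and none lower by edgeR's quasi-likelihood test at an adjusted p under 0.05, against 5.49% and 6.25% of all genes tested, with 6 at an unadjusted p under 0.05.

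Between the 2 Cop1 guides 1 of the 40 genes differed in vehicle and 12 with IFNγ. The median log2 difference of the 40, Cop1_sgRNA2 minus Cop1_sgRNA1, was 0.06 in vehicle and 0.07 with IFNγ, and whether the guide difference changed with IFNγ was not tested. The gene called in vehicle was Cenpe, higher with Cop1_sgRNA2, while 2.58% of all genes tested were higher and 3.41% lower. Its levels are given above, and the difference was 0.12 ± 0.04 (adjusted p = 0.0465); it was not called without any 1 of the 4 libraries compared, or without either Cop1_sgRNA2 IFNγ library. Cenpf had the largest difference, 0.14 ± 0.05 (adjusted p = 0.0639), and did not pass. With IFNγ 12 genes were called, each higher with Cop1_sgRNA2, while 5.07% of all genes tested were higher and 4.33% lower. They were Anln, Cenpe, Cenpf, Cdc20, Bub1b, Espl1, Ccna2, Tpx2, Incenp, Ect2, Kif2c and Mki67. Anln had the smallest p, with a difference of 0.15 ± 0.03 (adjusted p = 0.000286), and Mki67 the largest difference, 0.27 ± 0.07 (adjusted p = 0.0488). Without any 1 of the 4 libraries compared 4 or 5 genes were called, and DESeq2 called 7. Here too the change followed length, with a correlation of 0.35 over all genes and 0.38 over the 40.

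Against Rosa26 with IFNγ, Cop1_sgRNA2 gave 19 genes higher and 2 lower, against 16.6% and 16.2% of genes tested, and Cop1_sgRNA1 7 higher and 5 lower, against 18.9% and 19.3%. Without replicate 2 of Cop1_sgRNA2 IFNγ the first became 8 and 1, and without replicate 1 of it, or without replicate 2 of Rosa26 IFNγ, 12 and 1. With library totals in place of scaling factors it was 9 and 2. Without replicate 2 of Rosa26 IFNγ, or without replicate 1 of Cop1_sgRNA1 IFNγ, Cop1_sgRNA1 gave 4 and 3.

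Over the 6 groups the summed level of the 40 genes was highest in Rosa26 vehicle, at 7995 ± 36.8 CPM (SD, n = 2), and lowest in Rosa26 IFNγ, at 6848 ± 11.9. Cop1_sgRNA2 vehicle held 7932 ± 71.8 CPM and Cop1_sgRNA1 vehicle 7712 ± 43.6. With IFNγ they held 7252 ± 7.18 and 6896 ± 26.1 CPM. The lowest rank depended on the scaling factors. As a share of all counts Cop1_sgRNA1 IFNγ was lowest, at 0.672% and 0.678%, against 0.692% in each Rosa26 IFNγ library. Rosa26 vehicle and Cop1_sgRNA2 vehicle, whose libraries overlapped, did not differ beyond their spread. Every vehicle library was above every IFNγ library. Gene by gene, the lowest group was Cop1_sgRNA1 IFNγ for 18 genes, Rosa26 IFNγ for 17 and Cop1_sgRNA2 IFNγ for 4, and for Top2a it was Cop1_sgRNA2 vehicle. The highest group was Rosa26 vehicle for 20 genes, Cop1_sgRNA2 vehicle for 11, Cop1_sgRNA1 vehicle for 8 and, for Top2a, Rosa26 IFNγ. The ratio of the highest to the lowest group mean ran from 1.12 to 1.60 with a median of 1.32, so these genes varied within a narrow span.

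Per kilobase of exon, levels in Rosa26 vehicle ran from 5.64 CPM per kb for Cdc25c to 122.6 for Cdc20, with a median of 31.7. Top2a stood at 114 CPM per kb and Ccnb2 at 101, and Cenpf, the longest of the 40, at 12.4. With IFNγ Cdc20 was at 79.3 CPM per kb and Top2a at 128, so that Top2a stood above Cdc20. These levels use the union of annotated exons as length and do not account for which isoforms were made.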

How the data were processed

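The authors' deposited table holds whole-number gene counts for each of the 12 libraries, not normalized. Per the labels' protocols, the libraries were made from total RNA with an Illumina TruSeq kit. Per the submitters' processing notes, STAR 2.4.0, HTSeq and DESeq2 1.10 were used with build mm10. How strands and multi-mapped reads were counted, and with which annotation, is not given in the sources used here. A row of totals was left out; it equalled the sum of gene counts in 11 libraries and exceeded it by 360 in 1.

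From these counts edgeR 4.0.16 (R 4.3.3) gave TMM factors, kept 11904 genes (filterByExpr, count minimum 10 and total minimum 15) and fitted all 6 groups in 1 quasi-likelihood model with robust estimation. The square root of the common dispersion was 3.21%, with 6 residual degrees of freedom. P-values were adjusted by Benjamini-Hochberg over all 11904 genes, and only rows of the 40 genes and the fixed lists are printed. Errors of log2 changes are standard errors. Values in every library are printed for 18 genes of a set list, and for the gene with the smallest p in each direction and the largest change of each comparison; of the pathway lists the 2 called genes with the smallest p in each direction are named. The scripts were tested on simulated data.

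The members and lists were chosen with earlier results of these data known. Loci and exonic lengths are from GENCODE M21 (GRCm38, the same build as mm10) and promoters from RefSeq (GRCm38.p6). Alternatives were other scaling, filters, DESeq2 1.42.0, a replicate block, each library left out, summed populations and, chosen after seeing the data, removal of a length trend. Columns of other samples numbered 0.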

Additional observations from a re-analysis of the deposited data

Results flagged for a closer look

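In 9 of the 40 genes the response to IFNγ differed between Cop1-loss and Rosa26 cells by the test of the difference itself, against 3.38% of all genes tested with a more positive and 2.36% with a more negative response. The log2 difference, Cop1-loss minus Rosa26, was 0.27 for Bub1b, 0.26 for Cenpe, 0.25 for Cenpf, 0.21 for Kif20a, 0.20 for Plk1, 0.20 for Espl1, 0.16 for Anln and 0.16 for Cdc20. For Aurka it was -0.18. The adjusted p values, from edgeR's quasi-likelihood test, ran from 0.000265 for Bub1b to 0.0267 for Aurka. These calls did not hold with both libraries of every population added together, as given above. The difference also followed transcript length, with a correlation of 0.22 over all genes and 0.32 over the 40. With the length trend removed Aurka was no longer called (-0.15, adjusted p = 0.0685 by the same test), while Ccnb2, Pttg1 and Mki67 were.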

How the results depend on the processing

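No result named here changed direction while called. With library totals in place of scaling factors the guides differed in vehicle in 2 genes (1 in the reported fit), and Cop1_sgRNA2 against Rosa26 with IFNγ gave 11 in place of 21. The guides differed in vehicle in 2 genes with no filter on low counts, in 0 without robust estimation (10 at an unadjusted p under 0.05) and in 0 by DESeq2 (5 at an unadjusted p under 0.05). With IFNγ DESeq2 called 7 in place of 12. With the libraries of every population summed, calls went from 21 to 2 after Cop1 loss in vehicle, from 16 to 2 after Cop1 loss with IFNγ, from 36 to 17 with IFNγ in Rosa26 cells, from 36 to 20 with IFNγ in Cop1-loss cells, and from 9 to 0 for the difference of responses (2 at an unadjusted p under 0.05). This setting has fewer samples.

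Leaving out 1 library at a time gave 12 to 23 calls after Cop1 loss in vehicle, 13 to 16 with IFNγ, 31 to 37 for IFNγ in Rosa26 cells, 34 to 37 in Cop1-loss cells, 4 to 10 for the difference of responses, 0 to 2 between the guides in vehicle and 4 to 13 with IFNγ. For single guides against Rosa26 it gave 17 to 23 and 7 to 14 in vehicle and 7 to 12 and 9 to 22 with IFNγ.

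Replicate numbers are shared by the groups, but same-numbered libraries did not deviate together (correlations of -0.05 to 0.07), so they were not treated as pairs. With the replicate block the guides differed in vehicle in 2 genes, and the other counts stayed within 1.5 times. Counting error alone is 4.64% of a level at the lowest count of the 40 genes, 464, and 1.75% at their median count of 3261, beside a spread beyond counting of 3.21% (the square root of the common dispersion).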
